A study of Rattus norvegicus with 2 samples.

Results

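Chemokines, interleukins and colony-stimulating factors are small secreted proteins by which cells call in, activate and keep alive the cells of the immune system. Chemokines bind G protein-coupled receptors and set the direction in which leukocytes migrate. Interleukins and colony-stimulating factors bind receptors that mostly signal through JAK kinases and STAT factors, while the receptors of the IL-1 family, the IL-17 family and TNF signal through NF-κB. Many of these genes are silent in resting cells and are switched on for a short time by NF-κB, AP-1 and C/EBP factors, and their mRNAs are often rapidly degraded. In glioma, some of them are made by the tumor cells themselves, and several are also part of the secretory phenotype of senescent cells.

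The genes described here were chosen by symbol alone, that is Cxcl or Ccl with a number, Il with a number and at most a single letter without the receptors, and Cx3cl1, Csf1, Csf2, Csf3, Lif and Tnf. The rule found 75 of the 23188 transcript clusters on the array, which are sets of probes that report on a single gene or transcript, and they stand for 74 genes. Il18 was the gene with more than 1 transcript cluster. All 74 symbols were found in a RefSeq gene table of the rat.

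The compared conditions differ in tafazzin (TAZ), an acyltransferase of mitochondria that remodels the phospholipid cardiolipin. C6, an established rat glioma cell line, was the wild type, and C6 TAZ is the same line with tafazzin knocked out by CRISPR-Cas9. Both were grown in DMEM with serum and antibiotics without a further treatment. For each condition, RNA of 3 independent cultures was pooled and measured on 1 Affymetrix Clariom S rat array. The sources used here do not say whether C6 TAZ is a single clone. As each condition has 1 array, the spread between cultures is unknown, and values are given without an error or a p-value.

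Values are log2 signals as the authors deposited them, and differences are C6 TAZ minus C6, so that a difference of 1 is 2-fold. Signals of different genes come from different probes, so a comparison between genes is rough. It is used here only to call genes dim or bright. The guides are a limit of 6 on the log2 signal and the signals of receptors not expected in these cells. The deposited data name the arrays in opposite ways. The workbook, whose names were used here, has the columns C6 and C6 TAZ, and a second table, arranged by sample, gives identical signals in 100% of the clusters only once its columns are exchanged. With the names of that table, every difference below changes its sign. A signal that differs between bulk RNA samples can come from the number of expressing cells or from the RNA per cell, and these cannot be told apart here.

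Many of the cytokine clusters were dim. Their log2 signals ran from 3.08 to 13.49 in the C6 array, with a median of 4.97, and from 3.41 to 14.10, with a median of 4.84, in C6 TAZ. The mean log2 signal of both arrays was 6 or more in 16 clusters and lower in the other 59. For olfactory and vomeronasal receptors, which are not expected in glioma cells, the 95th percentile was 5.87 in C6 and 5.96 in C6 TAZ. The 1272 receptor clusters under a mean of 6 had an SD of 0.48 over their differences, which gives the scatter of differences at low signals. Single differences among them ran from −1.83 to 2.23, so some dim receptors passed 2-fold in either direction.

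The tafazzin-deficient array showed higher signals of the neutrophil chemokine Cxcl1 (6.87-fold) and the IL-6-type cytokine Lif (3.01-fold). The alarmin Il33 was also higher, by 2.10 on the log2 scale, at signals in the range of the nasal receptors in both arrays. The C6 TAZ array showed lower signals of the chemokine Cxcl12 (4.03-fold) and of Il18. In all, 8 of the 75 cytokine clusters (10.7%) were higher in C6 TAZ by 2-fold or more, against 2.34% of all clusters, and 3 (4%) were lower by 2-fold or more, against 2.10% of all clusters. The cytokine genes had no common direction. Of the 75 clusters, 37 had a difference above 0, 37 below 0 and 1 of 0, and the median was 0.00, as over all clusters. The 16 clusters with a mean signal of at least 6 had 10 above 0 and 6 below (median 0.275). The 59 dimmer clusters, which make up most of the count, had 27 above and 31 below (median −0.04).

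**Figure D1:**
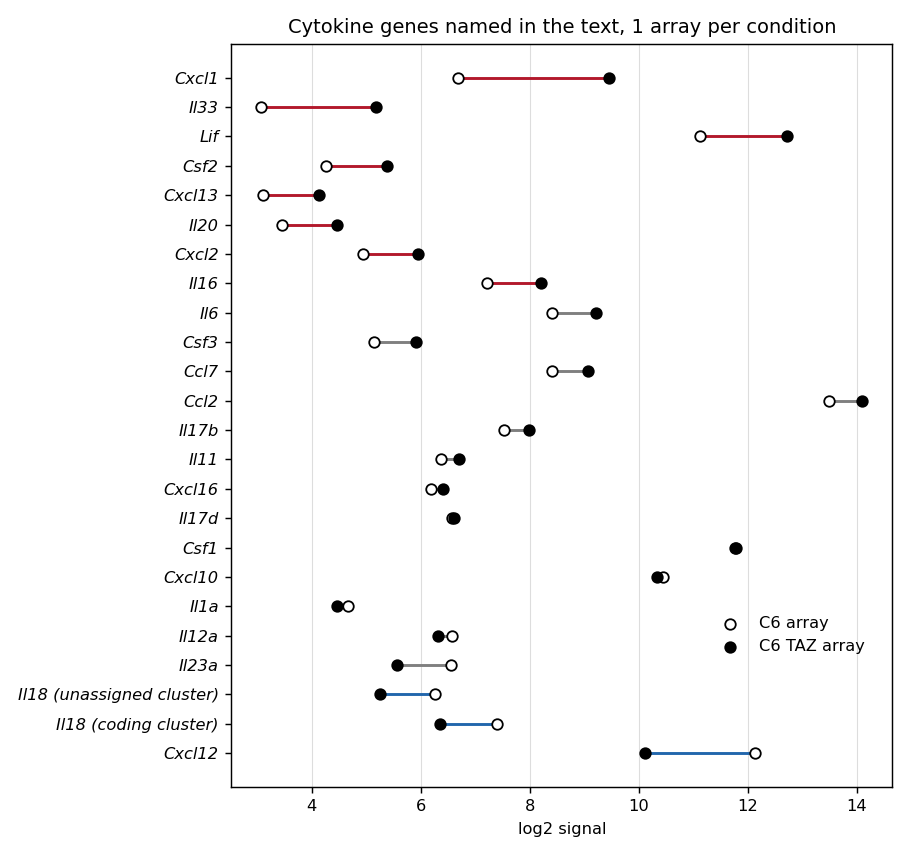
Log2 signal (x axis) of the cytokine genes named by rule, in the C6 array (open circles) and the C6 TAZ array (filled circles), 1 array each. Red lines mark differences of 2-fold or more upward and blue lines downward, and the longest lines are those of Cxcl1 (6.68 to 9.46), Il33 (3.08 to 5.18) and Cxcl12 (12.13 to 10.12).

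Among the 16 clusters at or above this mean signal of 6, 3 were higher by 2-fold or more (Cxcl1, Lif and Il16) and 2 were lower (Cxcl12 and Il18). Of all 12348 clusters at that signal, 3.07% were higher and 2.45% lower by 2-fold. Among the 59 dimmer clusters, 5 (8.47%) were higher (Il33, Csf2, Cxcl13, Cxcl2 and Il20), against 1.51% of all 10840 clusters under that signal. The second Il18 cluster (1.69%) was lower, against 1.71%. For the olfactory and vomeronasal receptor clusters under that signal, the shares were 2.36% higher and 2.12% lower. At 1.5-fold, the threshold in the study's methods, 15 cytokine clusters were higher and 7 lower, against 9.87% and 9.05% of all clusters.

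**Figure D2:**
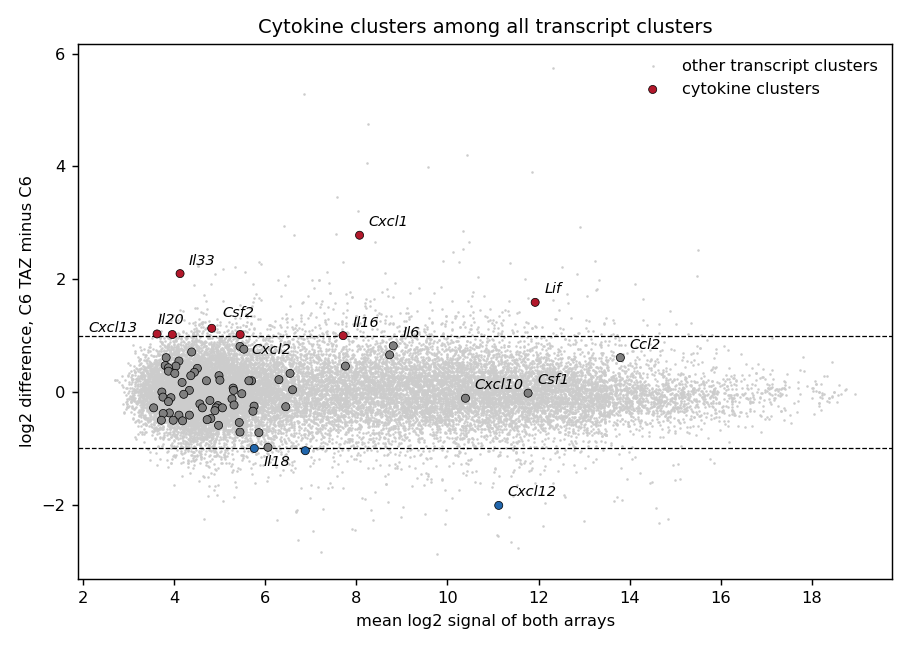
Log2 difference of C6 TAZ minus C6 (y axis) against the mean log2 signal of both arrays (x axis) for the 75 cytokine clusters (large points, red or blue past 2-fold) and all other clusters (small grey points). Most cytokine clusters lie under a signal of 6 and within the dashed lines at 2-fold, while Cxcl1, Lif and Cxcl12 lie outside the lines at higher signals.

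The chemokines that carry the glutamate-leucine-arginine motif and attract neutrophils through Cxcr2 were all above 0. The signal of Cxcl1 was 6.68 in the wild-type array and 9.46 in the knock-out array, a difference of 2.78, which is rank 14 from the top of all 23188 clusters. Cxcl2, known as a macrophage inflammatory protein, went from 4.94 to 5.96 (1.02). Cxcl3 (4.09 and 4.26) and Cxcl6 (3.66 and 4.09) of the same group had differences of 0.17 and 0.43, which is within the scatter of the nasal receptors. Thus 2 of these 4 genes (50%) were higher by 2-fold, against 2.34% of all clusters. Cxcl1 was the one among them with a signal above 6. The signals of Cxcl2 did not exceed the 95th percentile of the nasal receptors in either array. In the RefSeq gene order these 4 genes lie close together on chromosome 14, with Cxcl2 next to Cxcl1.

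NF-κB is a known activator of this group, and the promoters of Cxcl1, Cxcl2 and Cxcl6 are shown here beside those of Cxcl10 and Il6, in which the same motif was found. The sequences are the 200 bases before the transcription start in RefSeq (GRCr8), read 5′ to 3′ in the direction of the gene, and capitals mark matches to the NF-κB decamer on either strand, with overlapping matches joined. Cxcl3 had no entry. The stretches are chr14:17479322-17479521 (minus strand) for Cxcl1, chr14:17467256-17467455 (minus) for Cxcl2, chr14:17596418-17596617 (minus) for Cxcl6, chr14:15988866-15989065 (plus) for Cxcl10 and chr4:5894576-5894775 (minus) for Il6.
Cxcl1: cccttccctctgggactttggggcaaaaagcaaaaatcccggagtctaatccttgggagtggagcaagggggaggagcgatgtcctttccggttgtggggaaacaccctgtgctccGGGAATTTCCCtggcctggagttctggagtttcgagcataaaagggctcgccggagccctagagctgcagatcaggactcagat
Cxcl2: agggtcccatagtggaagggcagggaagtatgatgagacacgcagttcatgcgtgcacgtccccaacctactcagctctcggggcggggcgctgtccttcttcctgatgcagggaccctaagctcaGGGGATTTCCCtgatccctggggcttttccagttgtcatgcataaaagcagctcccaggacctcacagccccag
Cxcl6: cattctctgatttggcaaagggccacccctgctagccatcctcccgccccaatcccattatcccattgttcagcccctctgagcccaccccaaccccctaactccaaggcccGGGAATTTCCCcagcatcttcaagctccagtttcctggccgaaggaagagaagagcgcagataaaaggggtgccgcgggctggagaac
Cxcl10: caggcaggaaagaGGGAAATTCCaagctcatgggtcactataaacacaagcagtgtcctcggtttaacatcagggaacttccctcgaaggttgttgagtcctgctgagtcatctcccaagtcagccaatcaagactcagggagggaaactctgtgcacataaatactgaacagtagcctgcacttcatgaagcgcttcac
Il6: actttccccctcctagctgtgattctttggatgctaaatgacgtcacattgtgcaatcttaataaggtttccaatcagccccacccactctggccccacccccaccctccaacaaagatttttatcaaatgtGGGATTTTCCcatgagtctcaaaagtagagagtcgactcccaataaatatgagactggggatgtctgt

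Cxcl1 and Cxcl6 carried the same 11 bases, at nearly the same distance from the start. Over the 300 bases around the start that the table holds, the NF-κB decamer was found in 9 of the 59 promoters (15.3%) of the 58 cytokine genes with an entry, against 4.18% of all 33469 promoters. The genes with a match did not share a direction. Besides Cxcl1, Cxcl2, Il6 (0.82) and Cxcl6, they were Il36a (0.29), Cxcl10 (−0.11), Ccl20 (−0.34), Cxcl11 (−0.41) and Ccl9 (−0.50). The AP-1 heptamer TGANTCA, searched on both strands, was found in 10 of the 59 promoters (16.9%), against 7.33% of all promoters. Its carriers ran from Il16 at 1.00 and Ccl7 at 0.66 to Cxcl11 at −0.41 and Il18, which had the match after its start. A match in these letters is a description of the sequence and was not tested as a binding site.

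Of the other CXC chemokines, Cxcl12 was 4.03-fold lower in C6 TAZ. This chemokine, also named SDF-1, attracts progenitor and immune cells through Cxcr4 and is bound by the scavenger receptor Ackr3. Its signal was 12.13 in the wild-type array and 10.12 in the knock-out array, bright in either, and the difference of −2.01 is rank 31 from the bottom of all clusters. Cxcl13, which attracts B cells, was dim, with 3.11 in C6 against 4.14 in C6 TAZ (1.03). Cxcl16, the ligand of Cxcr6, differed by 0.22 (6.19 and 6.41). The 3 ligands of Cxcr3, which are known to be induced by interferon, were within 2-fold, and Cxcl10 was at 10.45 in C6 and 10.34 in C6 TAZ (−0.11). Cx3cl1, a membrane-bound chemokine of neurons, had the same signal of 3.73 in both arrays.

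None of the 20 CC chemokine genes passed 2-fold, against 2.34% of all clusters higher and 2.10% lower, and their median difference was −0.12. Ccl2, which attracts monocytes and is also named MCP-1, was bright, at 13.49 in C6 against 14.10 in C6 TAZ (0.61). Ccl7, a monocyte chemokine next to Ccl2 on chromosome 10, was at 8.40 and 9.06 (0.66). These are the 2 CC chemokine genes with a mean signal above 6. The other 18 had a median of −0.19 and ran from −0.71 for Ccl24 to 0.71 for Ccl3, at signals near those of the nasal receptors. At 1.5-fold, 3 of the 20 were higher and 1 was lower, against 9.87% and 9.05% of all clusters.

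In the IL-1 family, Il33 and Il18 went opposite ways. Both are made as precursors without a classical secretion signal, and Il33 is stored in the nucleus and released by damaged cells. In the wild-type array Il33 was at 3.08, against 5.18 in the knock-out array (2.10). Even the higher of these signals lies under the 95th percentile of the nasal receptors, and differences of the dim receptors reached 2.23. Il18, which is activated by caspase-1, had 2 transcript clusters, with signals of 7.40 and 6.36 (−1.04) and of 6.26 and 5.26 (−1.00). The clusters belong to the same gene and the same RNA, and are no replicates. Il1a had signals of 4.67 and 4.46 (−0.21), and Il1b, its neighbour on chromosome 3, had 5.27 and 4.68 (−0.59). The family had a median of −0.39 over 8 clusters, with 1 higher and 2 lower by 2-fold, against 2.34% and 2.10% of all clusters.

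The IL-6 family signals through Il6st (gp130). Its members found by the symbol rule with a signal above 6 were all higher in C6 TAZ, although a single gene passed 2-fold. Lif, the leukemia inhibitory factor, was at 11.13 in C6 against 12.72 in C6 TAZ (1.59). Il6 was at 8.40 against 9.22, which is 1.77-fold (0.82). Il11 differed by 0.33 (6.38 and 6.71), and Il31, which shares a receptor chain with other members of this family but does not use Il6st, by −0.10 at low signals. Of related ligands outside the symbol rule, Osm had low signals of 4.02 and 4.75 (0.73), and Clcf1 differed by −0.40. Cntf, also with signals above 6, was lower in C6 TAZ (8.53 and 8.35, −0.18), and Ctf1 was higher (8.18 and 8.40, 0.22).

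Colony-stimulating factors support the growth of myeloid cells. Csf2 (GM-CSF) was dim, with 4.26 in the wild-type and 5.39 in the knock-out array (1.13). Csf3 (G-CSF) was at 5.15 and 5.91 (0.76). Csf1 (M-CSF), which keeps macrophages and microglia alive, was bright and nearly equal in both arrays, with signals of 11.78 and 11.76 (−0.02). Il34, the other ligand of the Csf1 receptor, differed by 0.42 at 4.30 and 4.72. Il3, the neighbour of Csf2 on chromosome 10, differed by −0.17, and Tnf, the tumor necrosis factor, by 0.61 at low signals of 3.52 and 4.13.

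In the remaining groups, single genes reached 2-fold, beside 2.34% of all clusters higher and 2.10% lower. Il16, a chemoattractant for cells with CD4, was at 7.21 in C6 and 8.21 in C6 TAZ, and this difference of 1.00 lies exactly on the threshold. Il20 of the IL-10 family had 3.45 and 4.47 (1.02). None of the 6 IL-17 family genes passed 2-fold (median 0.27), with Il17b at 7.53 and 7.99 (0.46) and Il17d at 6.58 and 6.62 (0.04). All 4 genes for subunits of the IL-12 family that the symbol rule found were below 0 (median −0.40). Of these, Il12b (5.08 and 4.84) and Il27 (5.70 and 5.16) were dim. Il23a, the p19 subunit of IL-23, was the farthest with 6.55 and 5.57 (−0.98), just within 2-fold, and Il12a differed by −0.26 (6.58 and 6.32). The 7 ligands of the common gamma chain and its relatives, among them Il2, Il4, Il7 and Il15, ran from −0.49 to 0.46 with none past 2-fold. In all, 51 clusters were named by no rule, and these lay between −0.72 and 0.81, with signals up to 6.22.

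**Figure D3:**
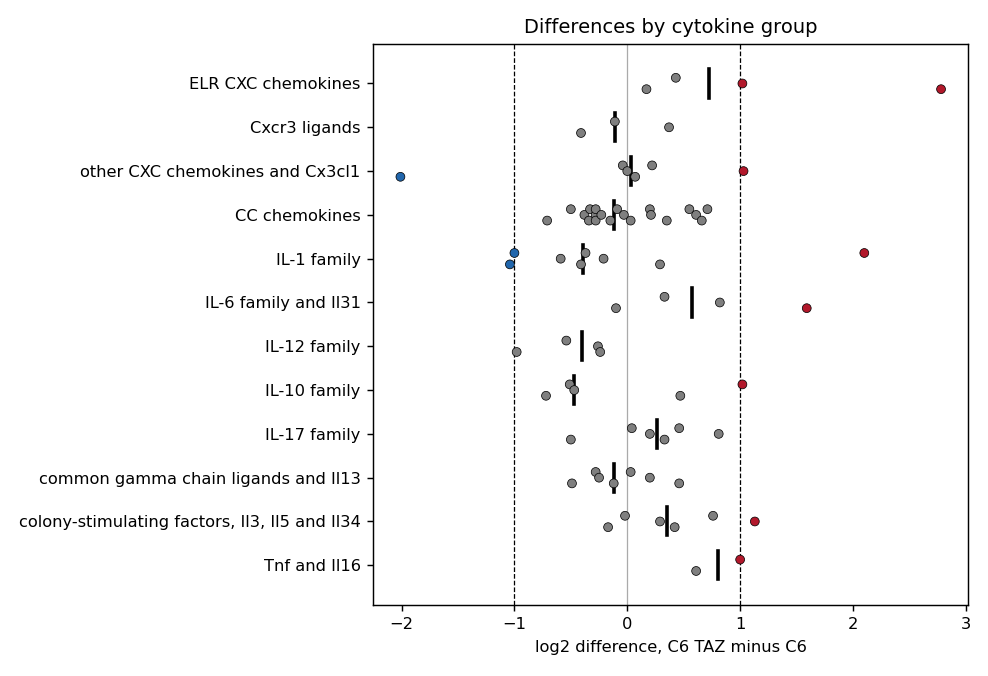
Log2 difference of C6 TAZ minus C6 (x axis) for each of the 75 cytokine clusters, grouped by family (rows), with black bars for the median of a family and dashed lines at 2-fold. Cxcl1, Il33 and Lif lie farthest to the right (2.78, 2.10 and 1.59) and Cxcl12 farthest to the left (−2.01), while the CC chemokines stay between −0.71 and 0.71.

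Several cytokine genes arose by local duplication and still lie side by side. Genes were counted as neighbours with at most 3 other protein-coding genes between them, which gave 15 neighbourhoods. In 8 of them all members lay on the same side of 0, in 6 they lay on both sides, and in the other 1 a member was at 0. The genes named in this paragraph beyond the rule were picked after their values were seen. A single sign was found for Il17a and Il17f (0.33 and 0.81), Il1a and Il1b, Il2 and Il21 (−0.28 and −0.49), Ccl24 and Ccl26 (−0.71 and −0.28) and Ccl27, Ccl19 and Ccl21 (−0.33 to −0.15), among others. Cxcl1, Cxcl2, Cxcl3 and Cxcl6 were also all above 0, from 0.17 to 2.78. On chromosome 13, Il24 (0.47) and Il20 (1.02) were above 0 and their neighbours Il19 (−0.72) and Il10 (−0.51) below. The neighbourhood of Ccl2 and Ccl7 on chromosome 10 went on with Ccl11 at 0.20, Ccl12 at −0.28 and Ccl1 at 0.55. Cxcl11, Cxcl10 and Cxcl9 on chromosome 14 lay between −0.41 and 0.37. At the low signals of most of these genes, such differences are of the size of the receptor scatter.

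**Figure D4:**
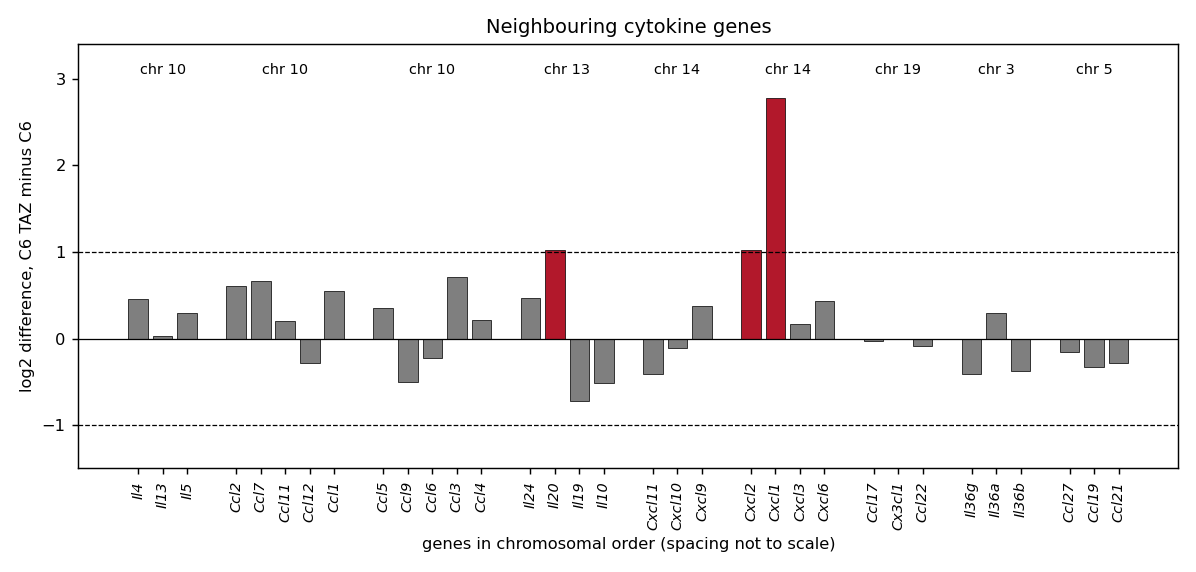
Log2 difference of C6 TAZ minus C6 (y axis) for neighbouring cytokine genes in the order of the RefSeq gene table, in groups of 3 or more (bars, with the chromosome above and dashed lines at 2-fold). Cxcl1 (2.78), its neighbour Cxcl2 (1.02) and Il20 (1.02) are the bars past 2-fold, and no bar goes below −0.72.

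None of 18 chemokine receptor genes passed 2-fold (median −0.01), against 2.34% of all clusters higher and 2.10% lower. Cxcr2, the receptor of Cxcl1 and Cxcl2, was dim at 4.16 and 4.31, and Cxcr4, the receptor of Cxcl12, had 3.84 and 3.56. Ackr3, which binds Cxcl12 and removes it, had 6.67 in C6 and 7.35 in C6 TAZ (0.68). Cxcr3, for which Cxcl10 is a ligand, differed by 0.90 at 4.00 and 4.90, and Ccr2, the receptor of Ccl2 and Ccl7, by −0.35 at 5.79 and 5.44. Cxcr5, the receptor of Cxcl13, differed by 0.02, Cxcr6 by 0.23 and Cd4, which Il16 binds, by 0.28, each at low signals.

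Of 48 clusters for receptors of interleukins, colony-stimulating factors, LIF and TNF, 2 were higher by 2-fold (4.17%) and 1 was lower (2.08%), against 2.34% and 2.10% of all clusters (median −0.16). Il17rb, a receptor of Il17b and Il25, was at 6.20 in the wild-type and 4.52 in the knock-out array (−1.68). Il10rb, a chain shared by receptors of the IL-10 family and interferon lambda, had 10.13 and 11.20 (1.07). Csf2rb, the beta chain of the Csf2 receptor, had 3.49 and 4.82 (1.33), while Csf2ra, its ligand-specific chain, had 7.36 and 7.19 (−0.17). The signals of Csf2 and Csf2rb lay under the 95th percentile of the nasal receptors in both arrays.

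Other receptors of the named ligands were within 2-fold. Il6st was bright and equal within 0.03 (14.40 and 14.43), Il6r differed by 0.01 (6.98 and 6.99), Lifr by −0.17 (5.76 and 5.59) and Il11ra1 by 0.39. Il1rl1 (ST2), the receptor of Il33, had 10.94 and 10.13 (−0.81), and its partner Il1rap had 14.43 and 14.67 (0.24). Il1r1, the receptor of Il1a, differed by 0.13 (11.03 and 11.16), Il18r1 by −0.39 and Il20rb by −0.32. Il20ra had clusters at −0.24 and 0.20, and Il23r clusters at 0.10 and 0.40. Il12rb1 differed by 0.52 and Il12rb2 by −0.36. Csf1r (3.66 and 3.44) and Csf3r (3.70 and 3.65) were dim in both arrays. None of 10 genes for antagonists and decoy receptors passed 2-fold (median −0.19), nor did any of 18 clusters for related ligands (median −0.15). Over all clusters, 2.34% were higher and 2.10% lower by 2-fold.

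Among the listed regulators of these genes, Zfp36 was the farthest from 0. The genes of AP-1 factors were not in the lists. It encodes tristetraprolin, which binds AU-rich elements and promotes the decay of cytokine mRNAs. Its signal was 5.25 in the wild-type and 8.03 in the knock-out array (2.78), and no other of the 13 clusters for mRNA decay and stability passed 2-fold (median 0.21), so that 7.69% were higher against 2.34% of all clusters. Of 27 clusters for NF-κB subunits, kinases and feedback genes, none was higher by 2-fold and 1 was lower (3.70%, against 2.10% of all clusters; median 0.18). This was Nfkb1, which encodes p105 and p50, with 12.24 and 10.91 (−1.33). Of 15 C/EBP, JAK and STAT3 genes, 2 were higher (13.3%, against 2.34% of all clusters), namely Socs2, an inhibitor of JAK-STAT signalling, with 9.47 and 10.72 (1.25), and the kinase gene Pim1 with 6.68 and 7.69 (1.01). None of 10 genes of the inflammasome and of cytokine processing passed 2-fold (median 0.04).

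**Figure D5:**
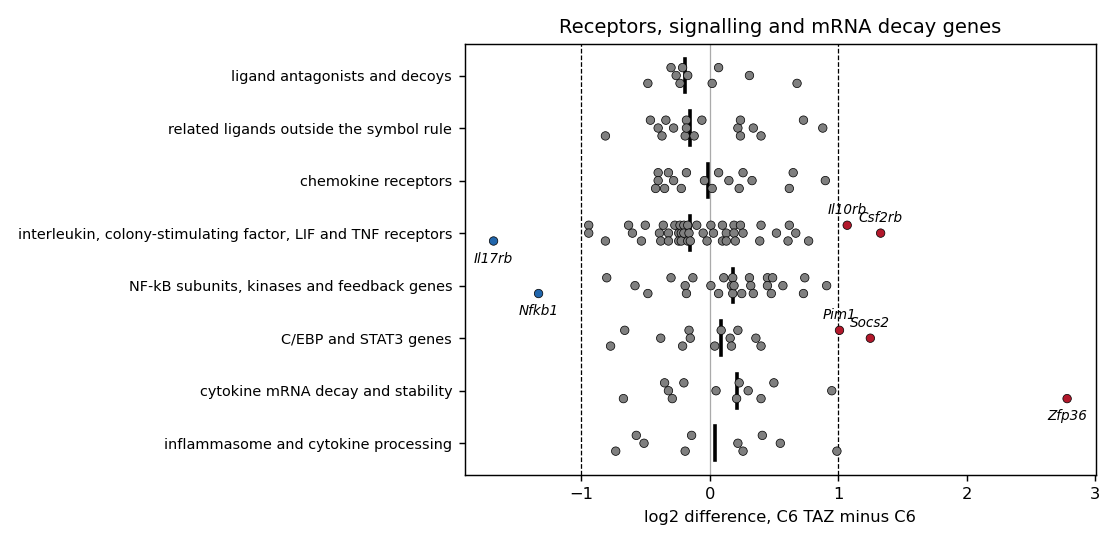
Log2 difference of C6 TAZ minus C6 (x axis) for receptors, antagonists, related ligands and regulators of cytokine genes by list (rows, each point a transcript cluster, black bars for the median, dashed lines at 2-fold). Zfp36 (2.78) lies farthest to the right and Il17rb (−1.68) farthest to the left, and the medians lie between −0.19 and 0.21.

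Immune cells also make many of these factors, and a check of their markers gave low signals with few exceptions. Of 12 genes of microglia and macrophages, Cd68 was at 6.30 in the wild-type and 8.42 in the knock-out array (2.12), and no other gene passed 2-fold (median −0.12), so that 8.33% were higher against 2.34% of all clusters. Ptprc, which encodes CD45 of all leukocytes, was dim with 4.94 and 4.76, as were Aif1 (4.83 and 4.61), Itgam (3.79 and 3.94) and Tyrobp (4.00 and 4.04). Cd14 was bright with 12.39 and 11.94. None of 6 genes of T and B cells passed 2-fold (median 0.28). The part of such cells in the cytokine signals was not tested. Of 7 genes of glioma and glial cells, Vim (18.72 and 18.77), Sox2 (13.24 and 13.63) and Nes (13.22 and 13.08) were bright in both arrays, while Gfap (5.73 and 6.38) and Slc1a3 (3.91 and 4.67) were dim.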

How the data were processed

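RNA of 3 cultures was pooled per condition and hybridised to 1 Clariom S rat array each. For each transcript cluster a log2 signal was deposited, which the submitters' processing notes link to Affymetrix Expression Console, with the annotation for the rn6 build. Summarization and normalization are not given in the sources used here. A column of the authors' fold changes and a sheet of peptidases were not used. Precision is limited by the number of arrays. A detection measure was not used.

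Differences of C6 TAZ minus C6 were formed from these log2 signals with no added scaling and rounded to 2 decimals. The analysis of variance of the methods cannot be run on 1 array per condition, so no test was made, and counts past 2-fold are read against the percentage of all clusters past the same fold. Clusters with several symbols (1673) were left out. The cytokine rule and the 11 gene lists were chosen with earlier results of these data known. Named are genes past 2-fold, cytokine genes whose mean log2 signal reached 6, Cxcl1, Il6, Il1a, Csf2 and Csf3, and the receptors of named ligands. Other genes given by value were picked for their family or place after their values were seen. Flt3lg, Il18rap and Rc3h1 had no cluster of their own. Sequences and gene order come from RefSeq (GRCr8), a build other than that of the array annotation. Of the 74 genes, 16 had no promoter entry. Counting was tested on simulated data. Alternatives were centring, quantile normalization, the other naming, a 1.5-fold threshold, a signal limit, clusters with several symbols and the mean. Python 3 with pandas and matplotlib was used.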

Additional observations from a re-analysis of the deposited data

How the results depend on the processing

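With the arrays named as in the per-sample table, 3 cytokine clusters were higher and 8 lower by 2-fold, and the differences past 2-fold became −2.78 for Cxcl1, −2.10 for Il33, −1.59 for Lif, −1.13 for Csf2, −1.03 for Cxcl13, −1.02 for Cxcl2 and Il20, −1.00 for Il16, 1.00 and 1.04 for Il18 and 2.01 for Cxcl12. The reason for the exchange was not tested. Under centring on all clusters, centring on ribosomal protein clusters and quantile normalization, no named cytokine gene moved by more than 0.05, but Il16 was at 0.96, under 2-fold, under quantile normalization. Il23a passed 2-fold there at −1.005, and the second Il18 cluster was at −0.99 under ribosomal centring. The count of C/EBP, JAK and STAT3 genes higher by 2-fold was 1 in place of 2 under quantile normalization, and that of inflammasome genes was 1 in place of 0 under ribosomal centring. The counts were then 7 to 8 higher and 2 to 4 lower. At 1.5-fold 15 were higher and 7 lower, among clusters whose mean log2 signal reached 6 the count of higher ones was 3, and clusters with several symbols changed neither count. The median of 0.00 was 0.275 at that signal limit, and the mean over all 75 was 0.10. No paired analysis was possible because each condition has 1 array. Without replicates, differences of low-signal genes such as Il33, Csf2, Cxcl2, Cxcl13 and Il20 have no measured error.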
